A study of Mus musculus with 6 samples.

Results

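The CCN genes encode a small family of secreted proteins that sit in the extracellular matrix and signal to the cells around them. Of the 23997 genes in the deposited table of the mouse ductus arteriosus (DA), 5 are described here, namely *Cyr61*, *Ctgf*, *Nov*, *Wisp1*, and *Wisp2*, which are now named *Ccn1* to *Ccn5* in that order. Members were chosen by gene symbol, and the family was selected on the values of *Nov*, which were lower in the mutant libraries. The difference in *Nov* is therefore given as a description with no test. The table also lists *Wisp3*, the remaining CCN gene, which is not counted among the members. It was listed at 0 in 5 of the 6 libraries and at 0.0624 FPKM in WT library 1.

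C57BL/6 embryos at E17.5 gave the DA tissue for RNA-Seq. There were 3 WT libraries and 3 *Prdm6* fl/fl SM22-Cre libraries by label, and each group is numbered 0, 1, and 2. In the mutant group, both alleles of *Prdm6* are floxed, and the SM22 promoter drives Cre-recombinase in smooth muscle cells (SMCs). The WT embryos are described as littermates, the labels do not say whether they carried Cre, and no source used here says whether a library is 1 embryo or a pool, so that the spread between libraries may be partly technical. Values are FPKM, the fragments assigned to a gene scaled by the length of its transcript and by the size of the library, as made by the authors with TopHat2 and Cufflinks. FPKM is scaled for length, so the levels of different genes may be set side by side. Differences between groups were fitted with limma to log2(FPKM + 0.1). The fit covered 12955 genes, each averaging 1 FPKM or more over the 6 libraries, on a scale that understates the change of low genes, and all 5 CCN genes were among these.

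The steps between low FPKM values put the libraries at 0.929 to 1.19 times the depth of WT library 1, whereas the total number of reads is unknown. Among 3506 genes averaging 20 FPKM or more, 34 to 61 were listed at 0 in any 1 library, and a listed 0 may thus be an estimate that failed, but no CCN member was listed at 0 in any library. *Prdm6* itself ranged from 19.8 to 48.4 FPKM in the WT libraries and from 15.4 to 48.6 FPKM in the mutant libraries. This whole-gene value overlapped between the groups, and the part of *Prdm6* that is floxed is not given in the sources used here, so the directions below rest on the labels. Sex-linked genes varied within both groups. *Xist* was at 67.0 FPKM in WT library 0 and 82.8 FPKM in mutant library 1, where the Y-linked *Ddx3y* was at 0 and 0.383 FPKM. In WT libraries 1 and 2 and mutant library 2, *Ddx3y* was at 20.1 to 24.0 FPKM and *Xist* at 0.0431 to 0.0530 FPKM. In mutant library 0, both *Xist* (81.0 FPKM) and *Ddx3y* (26.4 FPKM) were present. The libraries highest in heart muscle markers were WT 1 and *Prdm6* fl/fl SM22-Cre 2, with summed marker values of 1702 and 1925 FPKM against 68.4 to 582 FPKM in the other libraries. The differences of the CCN members are given below with all libraries, without mutant library 0, and without both libraries highest in heart muscle markers.

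CCN proteins are built from a string of cysteine-rich modules, starting with a domain related to the insulin-like growth factor binding proteins (IGFBPs) and ending in most members with a cystine knot module, which *Wisp2* lacks. They bind integrins, heparan sulfate proteoglycans, and growth factors, and so tune how cells adhere, migrate, and respond to TGF-β, BMP, and Wnt ligands. In the vessel wall, *Ctgf* and *Cyr61* are known as rapidly induced genes downstream of mechanical load and of the transcriptional coactivators YAP and TAZ. *Nov* is known as a product of vascular SMCs and endothelial cells that restrains SMC growth. *Wisp1* and *Wisp2* were first described as genes induced by Wnt1 signaling.

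All 5 genes are protein coding and lie on GRCm38, the assembly of mm10, on chromosome 3 from 145646976 to 145649981 (*Cyr61*), chromosome 10 from 24595442 to 24598683 (*Ctgf*), chromosome 15 from 54745702 to 54754039 (*Nov*) and from 66891320 to 66923201 (*Wisp1*), and chromosome 2 from 163820861 to 163833146 (*Wisp2*). The principal transcript of each has 5 exons in GENCODE vM21. The coding sequence is 753 bases in *Wisp2*, which lacks the last module, and 1044 to 1137 bases in the other members. Cysteine is encoded by 29 codons in *Wisp2* and by 38 to 40 codons in the other members. The 12 codons below hold the cysteine signature of the IGFBP-like domain and are shown because they mark the 5 genes as 1 family while differing between them. They are coding sequence on the sense strand, 5′ to 3′, from GENCODE vM21, with the cysteine codons in capitals.
Cyr61, exon 2, chr3:145649319-145649354: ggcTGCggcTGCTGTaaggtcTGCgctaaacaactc
Ctgf, exon 2, chr10:24595966-24596001: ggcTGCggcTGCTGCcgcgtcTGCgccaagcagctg
Nov, exon 2, chr15:54746265-54746300: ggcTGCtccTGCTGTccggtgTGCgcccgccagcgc
Wisp1, exon 2, chr15:66906545-66906580: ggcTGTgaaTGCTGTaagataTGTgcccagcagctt
Wisp2, exon 3, chr2:163825225-163825260: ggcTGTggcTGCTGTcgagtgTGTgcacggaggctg
All 5 stretches have 4 cysteine codons in the same places, and 16 of the 36 bases are the same in every member. *Cyr61* and *Ctgf* share 28 of these bases, the most of any pair, and *Cyr61* and *Wisp2* share 22, the fewest. Over whole coding sequences, aligned bases were identical at 55.1% (*Nov* and *Wisp1*) to 61.9% (*Ctgf* and *Nov*). The longest run of bases shared by the transcripts of 2 members was 28, between *Ctgf* and *Nov*, so only short stretches of these transcripts are identical.

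*Nov* was measured at 109, 84.3, and 109 FPKM for WT 0, 1, and 2, and at 36.6, 30.9, and 24.2 FPKM for *Prdm6* fl/fl SM22-Cre 0, 1, and 2. The groups did not overlap, and the lowest WT library was 2.31 times the highest mutant library. Mean FPKM was 101 ± 14.2 (SD, n = 3) in WT and 30.6 ± 6.21 (SD, n = 3) in the mutant libraries, or 30.3% of the WT mean. The log2 fold change was -1.73 with a standard error of 0.21, and 276 of the 12955 genes had a lower value. This difference is what the family was selected on and is not tested.

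Within groups, *Nov* was the steadiest of the 5 genes. The highest WT library was 1.29 times the lowest, the highest mutant library was 1.51 times the lowest, and the within-group SD was 0.26 on the log2 scale. Of the 3506 genes averaging 20 FPKM or more, 40.2% had a smaller SD, so *Nov* varied about as much as other abundant genes. With each library left out in turn, its log2 fold change lay between -1.87 and -1.57. It was -1.69 without WT library 1 and mutant library 2, which were highest in heart muscle markers, and -1.87 without mutant library 0.

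**Figure D1:**
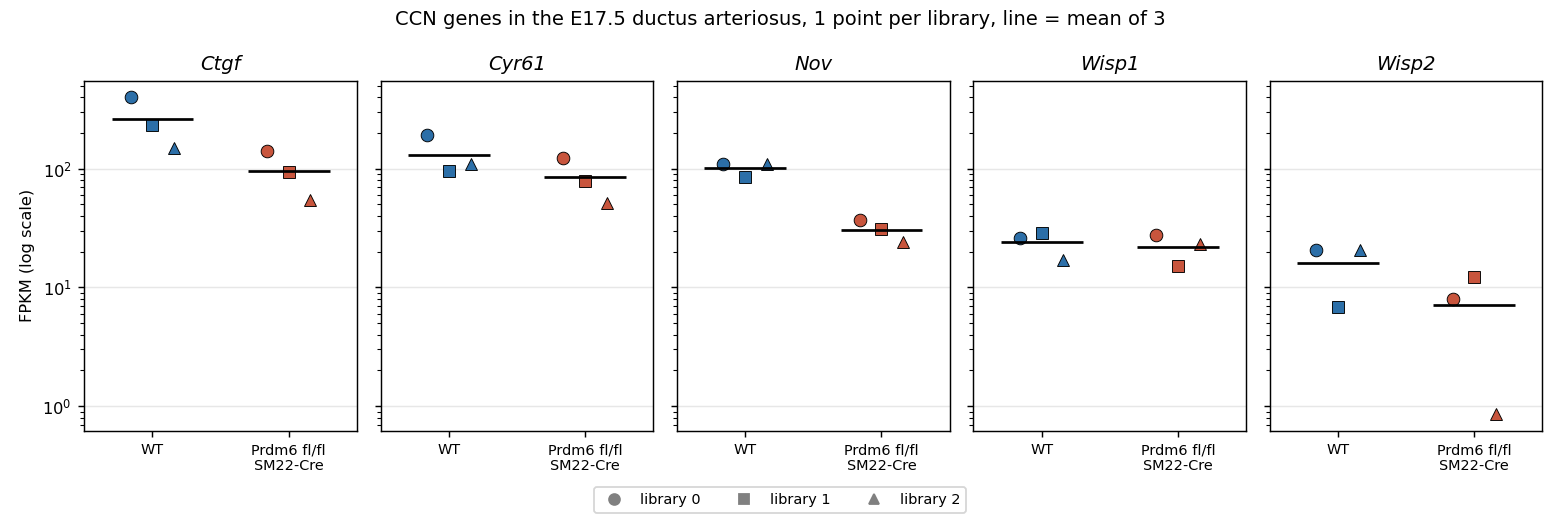
FPKM of the 5 CCN genes on a shared log axis, with 1 point per library, the symbol giving the library number, blue for WT and red for *Prdm6* fl/fl SM22-Cre, and a line at the mean of the 3 libraries. *Nov* lies at 84.3 to 109 FPKM in WT and at 24.2 to 36.6 FPKM in the mutant libraries, the groups of *Ctgf* just fail to meet, and those of *Cyr61*, *Wisp1*, and *Wisp2* overlap.

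*Ctgf*, the connective tissue growth factor, was the most abundant member. It stood at 402, 232, and 148 FPKM for WT 0, 1, and 2, and at 141, 92.8, and 54.6 FPKM for mutant 0, 1, and 2. Every mutant library was below every WT library, but the lowest WT value was only 1.05 times the highest mutant value. Means were 261 ± 129 (SD, n = 3) and 96.1 ± 43.3 FPKM (SD, n = 3). The log2 fold change was -1.42 (standard error 0.44, 95% interval -2.44 to -0.41, limma adjusted p = 0.54 over all genes tested). The difference did not pass the threshold of 0.05. Its log2 fold change ranged from -1.77 to -1.05 with each library left out and was -1.75 without mutant library 0 and -1.09 without both libraries highest in heart muscle markers. *Ctgf* varied widely within groups, by 2.71 times among the WT libraries and 2.58 times among the mutant libraries.

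*Cyr61*, which encodes a matrix protein that promotes cell adhesion and angiogenesis, was at 190, 95.2, and 108 FPKM in the WT libraries and at 123, 78.5, and 51.8 FPKM in the mutant libraries. Mutant library 0 exceeded 2 of the 3 WT libraries, so the groups overlapped. The log2 fold change was -0.66 (standard error 0.37, 95% interval -1.51 to 0.20, limma adjusted p = 0.65), which is within the spread between libraries. Without WT library 0 it was -0.35, without mutant library 2 it was also -0.35, and without mutant library 0 it was -0.97. Leaving out both libraries highest in heart muscle markers gave -0.55. Of the members, *Cyr61* alone has an entry in the RefSeq promoter table used here. The 250 bases before its RefSeq start are printed because they hold a match to GGAATG. This is the core recognized by the TEAD partners of YAP and TAZ. The match is in capitals and reads CATTCC here, since it is on the opposite strand. They lie at chr3:145649986-145650235 of GRCm38, minus strand, and are given 5′ to 3′.
Cyr61 promoter: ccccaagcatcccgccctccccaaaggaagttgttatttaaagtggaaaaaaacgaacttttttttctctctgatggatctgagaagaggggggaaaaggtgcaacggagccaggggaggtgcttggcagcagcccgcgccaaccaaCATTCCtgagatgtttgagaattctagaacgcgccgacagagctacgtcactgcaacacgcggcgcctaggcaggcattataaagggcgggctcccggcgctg
The match begins 103 bases before the RefSeq start, which lies a few bases away from the GENCODE start of the gene given above. Of the 32851 promoters in the table, 12.6% hold a match in either direction over the same length. The match is a description of the letters and does not show that the site is used.

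*Wisp1*, a matrix protein of mesenchymal and bone-forming cells, was the member that differed least. It was at 25.9, 28.8, and 17.0 FPKM in the WT libraries and at 27.7, 15.1, and 23.1 FPKM in the mutant libraries, so that each group spanned nearly the same range. The log2 fold change was -0.13 (standard error 0.31, 95% interval -0.84 to 0.58, limma adjusted p = 0.90). It turned to 0.020 without WT library 1 and to 0.12 without mutant library 1, and it was -0.32 without mutant library 0 and -0.037 without both libraries highest in heart muscle markers.

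*Wisp2*, which encodes the CCN protein without the cystine knot, was the least abundant and the most variable member. Its values were 20.5, 6.81, and 20.5 FPKM in the WT libraries and 7.96, 12.3, and 0.854 FPKM in the mutant libraries. WT library 1 was below 2 of the 3 mutant libraries, and mutant library 2 stood apart at the bottom. Although the log2 fold change of -1.65 was close in size to that of *Nov*, its standard error was 0.95 and its 95% interval ran from -3.86 to 0.57 (limma adjusted p = 0.66). Without mutant library 2 it was -0.52, so that this library carries much of the difference, while it was -2.05 without mutant library 0 and -1.04 without both libraries highest in heart muscle markers. The SD within groups was 1.54 on the log2 scale, against 0.26 for *Nov*.

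Across the family, all 4 members other than *Nov* had a negative log2 fold change, from -1.65 (*Wisp2*) to -0.13 (*Wisp1*). Of the 12955 genes tested, 5748 were negative, and the median of all genes was 0.072. With the selected *Nov* included, the count was 5 of 5 and the median -1.42, from which nothing is read. None of the 4 members other than *Nov* passed an adjusted p of 0.05 in limma, a rule met by 0.00772% of all genes, or 1 gene. That gene was *Rn45s*, the precursor of ribosomal RNA, which was listed at 0 in the 3 WT libraries and at 3060, 3806, and 4520 FPKM in mutant libraries 0, 1, and 2. It thus parted the groups completely, and its part in the CCN differences was not tested. Apart from *Nov*, which was selected on this contrast, 1 of 4 members, *Ctgf*, was lower at an unadjusted p under 0.05, as were 4.97% of all genes. The same member of the 4 parted the groups with the mutant libraries lower, as did 7.84% of all genes.

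The summed FPKM of the 5 genes was 747, 447, and 403 for WT 0, 1, and 2, and 336, 230, and 154 for mutant 0, 1, and 2. The groups did not overlap, but this rests on *Nov*, since the sum of the other 4 genes was 638, 363, and 294 in WT and 299.7, 199, and 130 in the mutant libraries, where mutant library 0 was above WT library 2. *Ctgf* made up 47.5% ± 9.29 (SD, n = 3) of this sum in WT and 39.2% ± 3.45 (SD, n = 3) in the mutant libraries. The share of *Cyr61* was 24.5% ± 2.90 (SD, n = 3) and 34.8% ± 1.61 (SD, n = 3), and each mutant library was above each WT library. This also held with *Nov* left out of the sum (26.2% to 36.8% and 39.5% to 41.1%). *Ctgf* and *Cyr61* make up most of that sum, so the share largely repeats their ratio, given below, and is no separate result. No background over all genes was computed for it. *Cyr61* itself was not higher in FPKM, with a log2 fold change of -0.66. *Nov* contributed 20.2% ± 6.32 (SD, n = 3) and 13.3% ± 2.39 (SD, n = 3), with overlap between the groups.

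**Figure D2:**
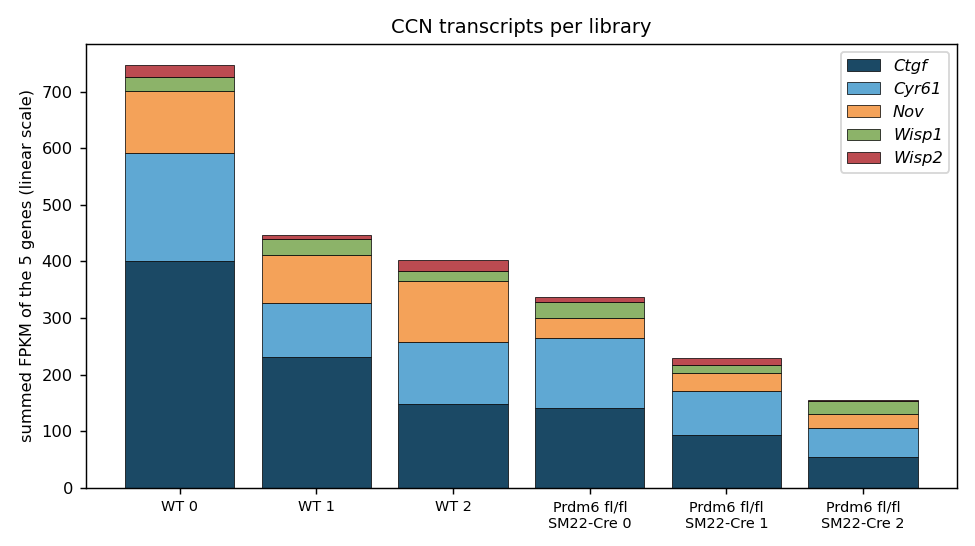
Stacked bars of the FPKM of the 5 CCN genes in each library on a linear axis from 0, in the order of their mean level. The whole bar runs from 747 in WT library 0 down to 154 in mutant library 2, and *Ctgf* and *Cyr61* together fill most of every bar.

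By mean log2 level the order was *Ctgf*, *Cyr61*, *Nov*, *Wisp1*, and *Wisp2*. *Ctgf* exceeded *Cyr61* in 6 of 6 libraries, by 1.47 times on average (exact two-sided sign-flip permutation test within libraries, p = 0.03125, the smallest that 6 libraries allow, adjusted p = 0.0625 over the 4 pairs of neighbours). *Wisp1* was above *Wisp2* in 5 of 6 libraries, by 2.77 times (exact permutation p = 0.0625, adjusted p = 0.0625). Neither pair passed the threshold after adjustment. The levels of *Nov* include the values it was selected on and are only described, being below *Cyr61* in 5 of 6 libraries by 1.81 times and above *Wisp1* in 6 of 6 by 2.46 times. In WT library 2, *Nov* was above *Cyr61* and *Wisp2* above *Wisp1*.

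Ratios of 2 genes within a library do not depend on how libraries are scaled against each other. Of the 6 pairs of members without *Nov*, 2 had ratios that did not overlap between the groups, where 15.3% of all pairs of tested genes did so, and the pairs share genes and are not independent. With *Nov*, whose selection fixes part of its ratios, it was 4 of 10 pairs, from which nothing is read. *Cyr61* to *Ctgf* was 0.474, 0.411, and 0.730 in the WT libraries and 0.873, 0.846, and 0.950 in the mutant libraries. *Ctgf* thus exceeded *Cyr61* by a clear margin in WT libraries 0 and 1 and was close to it in every mutant library. The ratio of *Ctgf* to *Wisp1* also parted the groups and was lower in the mutant libraries, by 1.29 on the log2 scale. Ratios with *Nov* are given as values only. *Cyr61* to *Nov* was 1.75, 1.13, and 0.995 in WT and 3.36, 2.54, and 2.14 in the mutant libraries. *Nov* to *Wisp1* was lower by 1.60 on the log2 scale in the mutant libraries. *Ctgf* to *Nov* was 1.36 to 3.69 in WT and 2.26 to 3.85 in the mutant libraries, with wide overlap. In every mutant library, *Ctgf* was thus lower relative to *Cyr61* and to *Wisp1* than in any WT library, whereas *Cyr61* to *Wisp1* overlapped between the groups.

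**Figure D3:**
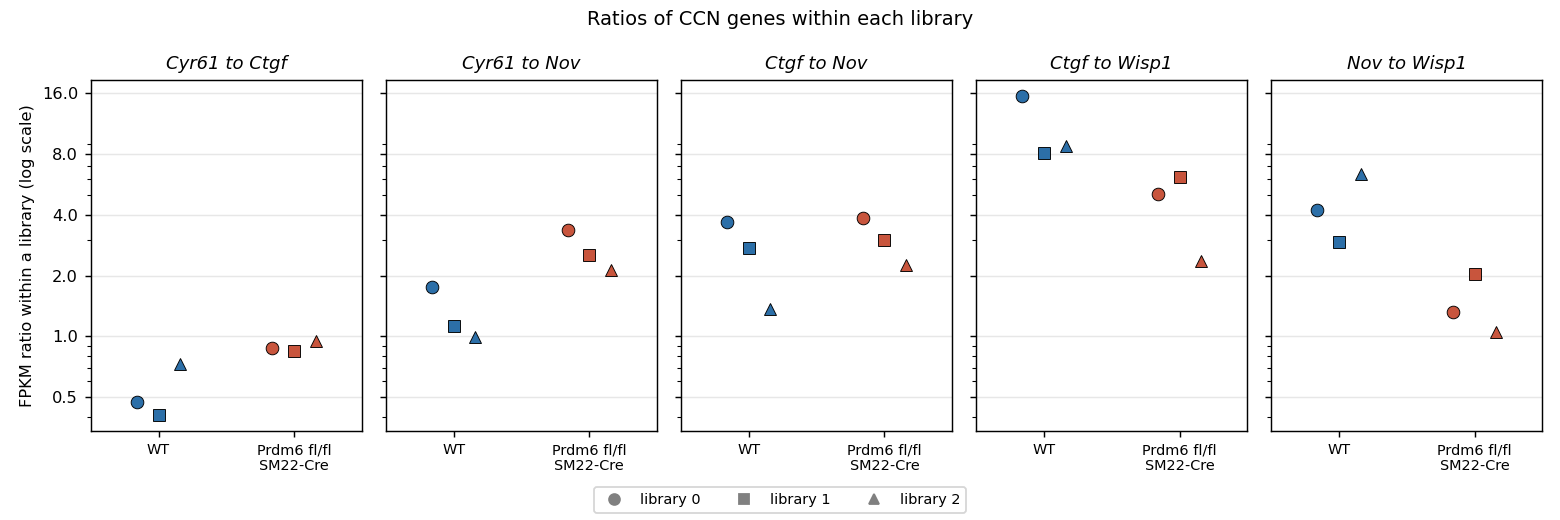
FPKM ratios within each library for 5 pairs of CCN genes on a shared log axis, with 1 point per library and the symbol giving the library number. *Cyr61* to *Ctgf* is higher and *Ctgf* to *Wisp1* lower in every mutant library than in any WT library. The panels with *Nov* include the values it was selected on, and nothing is read from them. *Ctgf* to *Nov* lies at 1.36 to 3.69 in WT and 2.26 to 3.85 in the mutant libraries.

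The markers of the SMCs themselves were lower as well. All 13 smooth muscle markers were detected and had negative log2 fold changes, with a median of -1.13, and 7 of them were lower without overlap between the groups (7.84% of all genes). An adjusted p of 0.05 was passed by 0 of the 13, and 6 were lower at an unadjusted p under 0.05 (4.97% of all genes). Without mutant library 2 their median was -0.67. Their summed FPKM was 3887 to 7479 in WT and 1456 to 3568 in the mutant libraries. *Acta2*, smooth muscle α-actin, and *Myl9*, a myosin light chain, were the most abundant, and their log2 fold changes were -0.85 and -0.74. *Tpm2*, which encodes β-tropomyosin, had the lowest, at -2.14. In bulk tissue, fewer SMCs and less of a transcript per SMC cannot be told apart, and this holds for every CCN difference above.

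Set against the mean log2 level of the 13 markers in the same library, the differences of the CCN genes lay on both sides of 0. *Nov* was at -1.43 to -0.52 in the WT libraries and at -1.60 to -1.30 in the mutant libraries, a mean difference of -0.51 with overlap between the groups. *Ctgf* differed by -0.20 and overlapped widely. *Cyr61* was at -0.63, -0.83, and -0.53 in WT and at 0.17, -0.26, and -0.20 in the mutant libraries, a mean difference of 0.57 without overlap. The marker mean itself differed by -1.22, so that 55.8% of all genes were higher in every mutant library on this scale and the median gene differed by 1.29, and the difference of *Cyr61* was below that of 88.9% of all genes. *Wisp1* was higher by 1.09 and *Wisp2* differed by -0.42, and for both the groups overlapped.

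**Figure D4:**
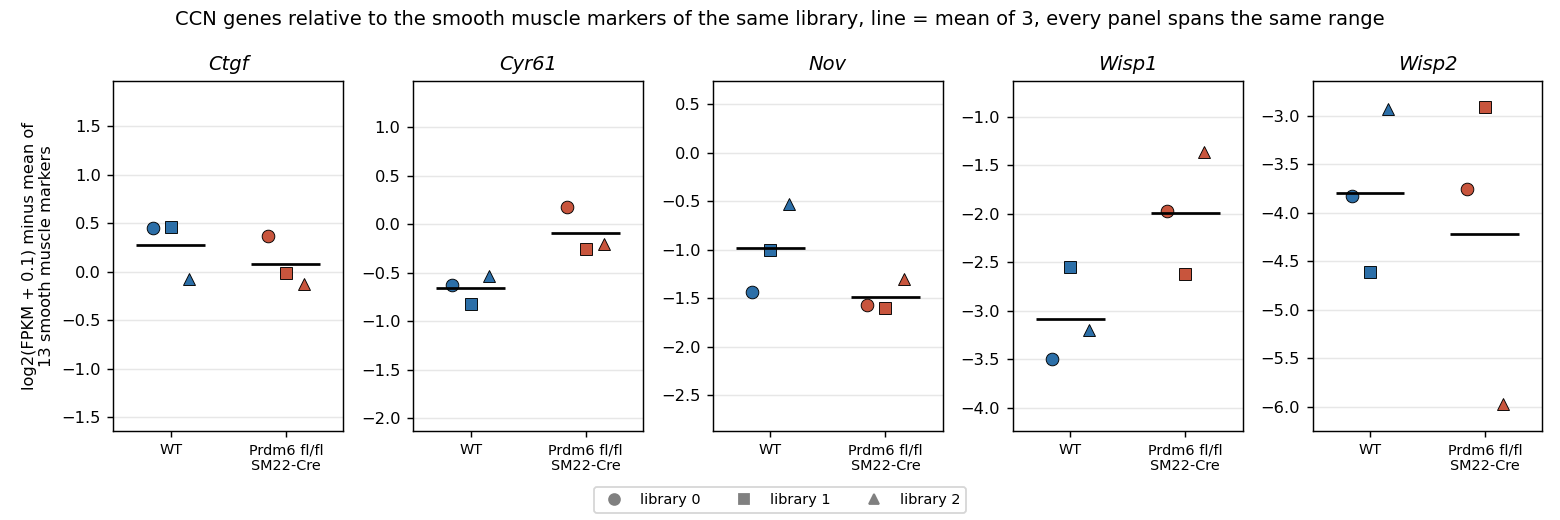
Level of each CCN gene as log2(FPKM + 0.1) minus the mean of the 13 smooth muscle markers in the same library, with 1 point per library, a line at the mean of 3, and panels of equal height on the log2 scale. *Cyr61* is higher in all mutant libraries, as are 55.8% of all genes on this scale, while *Ctgf*, *Nov*, *Wisp1*, and *Wisp2* overlap between the groups.

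Markers of some other cells also differed between the groups. The 11 Schwann cell markers summed to 16.9 to 40.3 FPKM in WT and 50.0 to 180 FPKM in the mutant libraries, and 9 of the 10 tested were higher. The 12 neuron markers summed to 20.1 to 41.4 and 43.4 to 88.5 FPKM. Endothelial markers (390 to 567 and 473 to 760 FPKM, 8 of 10 higher) and fibroblast markers (2033 to 4029 and 1466 to 3054 FPKM, 7 of 9 lower) overlapped, as did erythroid, leukocyte, cartilage, epithelial, brown fat, and heart muscle markers. Among these markers, *Ucp1* and *Plin1* of brown fat, *Matn1* of cartilage, and *Hba-a2* of erythroid cells were listed at 0 in all 6 libraries. Other markers of the same 3 lists were present, so these zeros do not show that the cells were absent. *Hba-a1* of erythroid cells averaged 7399 FPKM and *Fabp4* of brown fat 52.7 FPKM over the 6 libraries. *Acan* of cartilage was at 18.4 to 44.8 FPKM. These 2 genes stood far above the rest of their lists. The remaining brown fat markers averaged 0.507 (*Adipoq*) to 1.66 FPKM (*Pparg*), apart from those at 0. The remaining cartilage markers averaged 0.0718 (*Matn3*) to 3.92 FPKM (*Hapln1*), apart from *Matn1*. Neither list thus shows whether brown fat or cartilage cells were present. The 6 erythroid markers tested were all higher in the mutant libraries, each with overlap between the groups. The part of these cells in the CCN differences was not tested.

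Of 13 receptors for CCN proteins, 12 were tested, 5 lower and 7 higher in the mutant libraries, with a median log2 fold change of 0.15. None passed an adjusted p of 0.05, and 3 were lower at an unadjusted p under 0.05, as were 4.97% of all genes. These were *Itgb5*, *Lrp1*, and *Sdc4*, of which *Itgb5* was singled out after its values were seen. *Itgb5*, the β5 partner of integrin αv, was at 61.1, 62.0, and 57.0 FPKM in WT and at 36.8, 31.0, and 31.6 FPKM in the mutant libraries (log2 fold change -0.86, standard error 0.16, limma adjusted p = 0.33). *Lrp1*, an endocytic receptor that takes up CTGF, was at 88.0, 92.3, and 89.0 FPKM in WT and at 56.9, 67.6, and 62.2 FPKM in the mutant libraries (log2 fold change -0.53, standard error 0.15, limma adjusted p = 0.50). *Sdc4*, a heparan sulfate proteoglycan of the cell surface, had the lowest value of the list at -0.93 (standard error 0.34). The groups did not overlap for these 3 genes, and 7.84% of all genes were lower in that way.

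*Itgav*, the αv chain, parted the groups in the other direction, as 8.21% of all genes did, at 41.6, 41.5, and 38.1 FPKM in WT and 50.3, 47.0, and 47.3 FPKM in the mutant libraries. *Notch1*, which NOV can bind, did so too but narrowly, at 17.7, 14.2, and 21.2 FPKM in WT and 21.5, 28.0, and 23.5 FPKM in the mutant libraries. Its log2 fold change was 0.47 (standard error 0.23, limma adjusted p = 0.63). Both genes were picked once their values were known. *Itgb1*, the β1 chain and most abundant receptor gene at a mean of 365 FPKM, had a log2 fold change of -0.03. The largest positive value of the list was that of *Itgb2*, a leukocyte integrin, at 1.56 with a standard error of 1.46. The αv and β5 chains, which can form 1 receptor, thus parted the groups in opposite directions.

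Among 10 binding partners, 5 were lower and 5 higher, with a median of 0.017 that ranged from -0.15 without WT library 0 to 0.26 without mutant library 0. *Fn1*, which encodes fibronectin, was at 1381, 1063, and 1044 FPKM in WT and at 630, 967, and 759 FPKM in the mutant libraries (log2 fold change -0.58, standard error 0.24, limma adjusted p = 0.60). It was the only one of the 10 partners lower at an unadjusted p under 0.05, as were 4.97% of all genes. No partner was higher at that p, as were 3.31% of all genes. *Igf2*, a fetal growth factor, had a log2 fold change of 0.13. *Bmp4* had the highest of the list at 0.60 and *Bmp2* the lowest at -0.94, and the standard error was 0.32 and 0.57, respectively.

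The pathways known to induce CCN genes were described by their regulators and by their other targets. Of 15 genes of the Hippo pathway, which restrains YAP and TAZ, and of the TEAD factors, 8 were lower and 7 higher, with a median of -0.07. At an unadjusted limma p under 0.05, 0 were called, where 4.97% of all genes were lower and 3.31% higher. Without overlap between the groups, 2 were lower and 0 higher, as were 7.84% and 8.21% of all genes. *Wwtr1*, which encodes TAZ, had a log2 fold change of -0.08 and *Yap1* of -0.26. *Tead2*, the next most abundant of the list, stood at 0.21, *Tead4* had the highest value at 1.26 (standard error 0.81), and the kinase gene *Stk4* had the lowest at -0.50 (standard error 0.28).

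For 20 other YAP/TAZ-TEAD targets, of which 18 were tested, the median was -0.10, with 11 lower and 7 higher. None passed an adjusted p of 0.05. At an unadjusted p under 0.05, 3 were lower, as were 4.97% of all genes. At that p, 2 were higher, *Gadd45a* and *Crim1*, as were 3.31% of all genes. The lowest was *F3*, the tissue factor that starts coagulation, at 20.4, 4.58, and 14.7 FPKM in WT and 3.50, 0.846, and 1.38 FPKM in the mutant libraries (log2 fold change -2.71, standard error 0.73, limma adjusted p = 0.50). *Axl*, a receptor tyrosine kinase, was lower by a smaller amount at -0.52, and *Ccdc80*, a matrix protein and the most abundant of the list, stood at -0.21. The highest was *Gadd45a*, a stress response gene, which was listed at 0 in 2 of 3 WT libraries and at 1.59 to 7.44 FPKM in the mutant libraries. The log2 fold changes of this list thus ran from below those of all CCN members to far above them.

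Of 12 TGF-β response genes, 9 were lower and 3 higher, with a median of -0.25 that was -0.047 without mutant library 2 and -0.12 without WT library 2. *Tgfbi*, a secreted adhesion protein, had the lowest value, at 82.4, 61.6, and 47.1 FPKM in WT and 8.32, 13.3, and 18.4 FPKM in the mutant libraries (log2 fold change -2.28, standard error 0.34, limma adjusted p = 0.22). *Col1a1* was at -0.35 and *Postn*, which encodes periostin and had the highest value, at 0.34. Of 14 canonical Wnt targets, 8 were tested, 2 lower and 6 higher, with a median of 0.71 that turned to -0.14 without WT library 2 and to -0.09 with quantile normalization. *Nkd1*, a feedback inhibitor, had -0.96 and *Apcdd1*, also an inhibitor of Wnt signaling, -1.79, while *Ccnd1*, which encodes cyclin D1, had 1.07 and *Lef1* 2.09. The groups did not overlap for *Nkd1* and *Apcdd1* (standard errors 0.28 and 0.46), and 7.84% of all genes were lower in that way. They overlapped for *Ccnd1* and *Lef1* (standard errors 0.53 and 1.38). *Lef1* averaged 1.56 FPKM and was listed at 0 in WT library 2. No gene of the list was higher without overlap, as 8.21% of all genes were, and none passed an adjusted p of 0.05.

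The IGFBPs share their first domain with the CCN proteins. Of 14 genes with such a domain, 10 were tested, 8 lower and 2 higher, with a median of -0.38 that ranged from -0.67 without mutant library 1 to -0.14 without WT library 2. *Igfbp2* had the lowest value, at 102, 40.3, and 35.4 FPKM in WT and 11.8, 10.5, and 14.7 FPKM in the mutant libraries (log2 fold change -2.10, standard error 0.40, limma adjusted p = 0.33). *Igfbp4* and *Igfbp5*, the most abundant of the list, had -0.20 and -0.57, and *Crim1*, which is in the YAP/TAZ-TEAD list too, had the highest value at 0.61 with overlap between the groups.

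**Figure D5:**
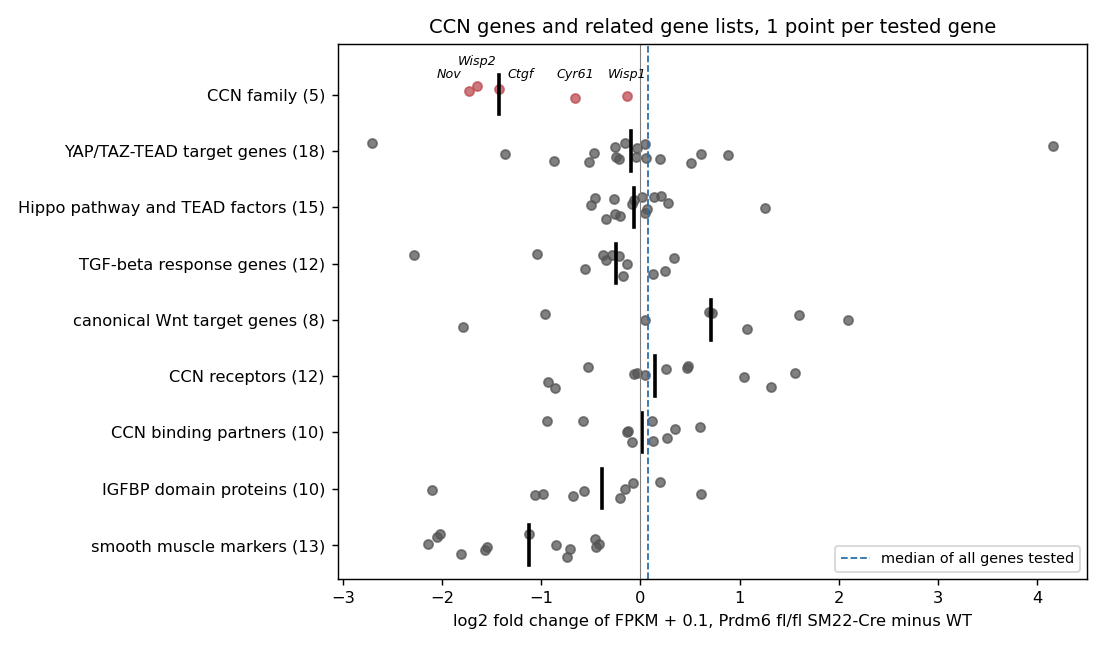
Log2 fold change of each tested gene in the CCN family (red, named) and in 8 related lists (grey), with a bar at each list's median, the number of genes tested in brackets, and a dashed line at the median of all genes. The CCN members lie between -1.73 (*Nov*) and -0.13. The family was selected on *Nov* and its median bar includes that gene, so nothing is read from how near it lies to other lists. The median of the smooth muscle markers is -1.13, and those of the Hippo, receptor, and binding partner lists lie between -0.07 and 0.15.

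The genes most like each member were those whose deviations from their own mean over the 6 libraries differed least, as the mean absolute difference on the log2 scale. For *Nov* these were *Kcne4*, an accessory subunit of potassium channels, at 0.14, *Ndnl2* at 0.21, and *Tpm2* at 0.23. For *Ctgf* they were *Actg2*, smooth muscle γ-actin, at 0.16, *Tceal3* at 0.18, and *Nacad* at 0.18, and only 8 genes were closer to *Ctgf* than *Tagln* was. *Wrb* at 0.077, *Angptl2* at 0.10, and *Myl9*, the smooth muscle myosin light chain, at 0.11 were closest to *Cyr61*. The likeness of *Nov* includes the difference between the groups it was selected on.

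For *Wisp1* the nearest were *Syvn1*, *Rfc1*, and *Ercc3*, at 0.064, 0.066, and 0.068, which are general housekeeping genes of protein degradation, DNA replication, and DNA repair. For *Wisp2* they were *B9d1* at 0.33, *Dpep1* at 0.47, and *Pianp* at 0.48, so no gene followed it closely. Within the family, *Ctgf* was about as close to *Nov* (0.40) as to *Cyr61* (0.42), and 59 and 66 genes, respectively, were nearer to it. *Cyr61* and *Nov* were farther apart, at 0.54. Likeness over 6 libraries is given as a description.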

How the data were processed

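Bulk RNA-Seq of E17.5 DA gave 6 libraries, 3 per group, whose group and number come from the sample titles, with 0 columns of the table left unmatched. The authors trimmed the reads, aligned them to mm10 with TopHat2, and deposited 1 FPKM value per gene and library from Cufflinks and Cuffdiff. Versions, annotation, and scaling between libraries are not given in the sources used here. FPKM cannot be turned into counts, so no counting interval was computed and differences were fitted across all genes with limma 3.58.1 in R 4.3.3 (empirical Bayes moderation allowing for a trend of variance with mean, Benjamini-Hochberg adjustment, threshold 0.05, two-sided). The fit was tested on simulated data. Cuffdiff, which needs aligned reads, was not repeated. Exact sign-flip tests compared gene levels within libraries.

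Sequences were read from GENCODE vM21 and RefSeq (GRCm38.p6) with Biopython 1.88. The promoter table held an entry for 1 of 5 members, so the promoters of the other members were not searched. Protein sequences were not used here. The members and gene lists were chosen with earlier results of these data known. Of each list, the genes named are the 2 most abundant and those with the largest positive and negative log2 fold change, with *Yap1*, *Prdm6*, and *Wnt1* as regulators, and others are marked where they occur. For likeness, the 3 nearest genes are named for each member.

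Alternatives covered the pseudocount (1 and 0.01), the filter (5, 0.1, or none), upper quartile and quantile scaling, the variance model, a replicate block, and each library left out. The fit without both libraries highest in heart muscle markers and the sums and pairs without *Nov* were chosen after the data were seen.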

Additional observations from a re-analysis of the deposited data

How the results depend on the processing

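Over 17 alternatives, *Nov* (-1.87 to -1.57), *Ctgf* (-1.77 to -1.05), *Cyr61* (-0.97 to -0.35), and *Wisp2* (-2.37 to -0.52) kept a negative log2 fold change, and no tested member reached an adjusted p of 0.05, the lowest being 0.24 for *Ctgf* with the replicate block, where its log2 fold change was -1.42. *Wisp1* turned positive without WT library 1 (0.020) and without mutant library 1 (0.12), with a range of -0.36 to 0.12 over the libraries left out. Over all genes, the same-numbered libraries did not deviate together (r of 0.12, -0.08, and -0.01 for numbers 0, 1, and 2), so the replicate block pairs them by number only. *Ctgf* did fall from number 0 to 2 in both groups (402, 232, and 148 FPKM in WT and 141, 92.8, and 54.6 FPKM in the mutant libraries). The replicate block left 1 gene past the threshold. That count was 2 without the mean-variance trend, 2 without moderation, 3 without both libraries highest in heart muscle markers, and 1 to 3 with a library left out, and no CCN gene was among them. The number of neighbour pairs in the same order in every library was 2 to 4 with a library left out, being 4 without WT library 2. The median of the Hippo list was 0.027 with quantile normalization, 0.070 without both libraries highest in heart muscle markers, and -0.12 to 0.030 with a library left out. That of the Wnt targets was -0.96 with a mean FPKM of at least 5, where 3 genes were left, -0.09 with quantile normalization, and -0.14 to 1.25 with a library left out, being -0.14 without WT library 2. That of the receptors was -0.035 to 0.23 with a library left out, being -0.035 without WT library 0. Of 35 named genes of the related lists, 33 kept their sign without mutant library 0 and without both libraries highest in heart muscle markers, and *Igf2* and *Igfbp4* turned, to -0.02 and 0.13, without mutant library 0. The causes were not tested. Scaling moved the median of all genes from 0.072 to 0.11 (upper quartile) and 0.0083 (quantile). With 3 libraries per group, a log2 difference as small as that of *Cyr61* is within the noise of these values.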

Other observations

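*Wnt1*, whose signaling gave *Wisp1* and *Wisp2* their names, was listed at 0 in all 6 libraries.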
